A study of Mus musculus with 3 samples.

Results

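The proepicardium is a cluster of mesothelial cells on the septum transversum, the mesoderm sheet between the heart and the liver bud of the early embryo. Its cells cross to the heart, spread over it as the epicardium, and give rise to fibroblasts and mural cells of the coronary vessels, while the septum transversum feeds mesenchyme into the liver. Wt1 and Tbx18, transcription factors, and Upk3b, a uroplakin of mesothelium, mark these cells, Gata4 is needed to form them, and Sfrp5, a secreted Wnt antagonist, marks the nearby venous pole. Mesothelium makes retinoic acid through Aldh1a2 and turns into mesenchyme by losing its epithelial character and laying down matrix.

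Single cells were taken as members where at least 2 of Wt1, Tbx18 and Upk3b had 1 or more UMIs (unique molecular identifiers, 1 per captured RNA molecule), Gata4 had 1 or more, and Myl7, Tnnt2, Ttn and Myl4 together stayed under 50 UMIs per 10000, which leaves out heart muscle. The rule found 387 of 14777 cells, 2.62%. All cells came from C57BL/6 mouse embryos that carried Mesp1-Cre, a Cre recombinase expressed in early mesoderm, and Ai9, a reporter that turns on tdTomato after recombination. Controls had 1 floxed allele of Wls (fl/+) and mutants had 2 (fl/fl), at E8.0, E8.5 and E9.5, with a further control sample labelled E7.5. Wls encodes the carrier that takes Wnt ligands to the cell surface, and the study asked what losing Wnt secretion from this mesoderm does. Controls therefore also carried Cre, the reporter and a floxed allele. Cells were sorted for the reporter to take Mesp1-Cre descendants, but the purity of the sort and RNA carried over from other cells were not tested. A barcode sample is the set of cells that share a MULTI-seq tag (a lipid-anchored oligonucleotide that marks a sample before pooling), a run, a stage and a genotype. The labels do not say how many embryos went into a barcode, so p-values measure only the spread between barcode samples.

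Of 22 barcode samples, 19 held members and 9 held 10 or more, 355 cells in all. These 9 were an E8.5 control (barcode 3, 93 members), 4 E9.5 controls (barcodes 22, 23, 4 and 9) and 4 E9.5 mutants (barcodes 19, 20, 21 and 10). The E9.5 controls held 45, 53, 11 and 16 members and the mutants 43, 34, 43 and 17. Barcodes 19 to 23 were in run 1, 3 and 4 in run 2, and 9 and 10 in run 3. Members had a median of 20906 UMIs, from 6502 to 65174, against 21739 over all cells. At E8.0 the rule found 18 members, 5 control and 13 mutant, and at E8.5 94 control and 9 mutant, so gene tests by genotype rest on E9.5.

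The markers used by the rule are a description of how the cells were chosen. Wt1 was detected in 92.5% of members, Tbx18 in 73.6% and Upk3b in 68.0%. Of genes outside the rule, Sfrp5 had a UMI in 56.1% of members, Tcf21, a transcription factor of epicardial and other visceral mesoderm, in 53.8%, Bnc1, a zinc-finger factor of mesothelium, in 50.7%, and Krt19, a keratin, in 46.3%. The same shares among the 1706 other Gata4-positive cells under the sarcomere limit, whose median depth was 23371 UMIs, were 26.4%, 33.9%, 15.1% and 21.7%. Krt19 was more frequent in cells over the sarcomere limit, at 57.6%. These shares pool the genotypes, and Krt19 was detected in 31.8% of E9.5 control and 72.1% of E9.5 mutant members. Blood-rich cells, which should lack these genes, had Sfrp5 in 2.22%, Tcf21 in 1.97%, Bnc1 in 0.781% and Krt19 in 2.92%. The septum transversum genes Hlx and Lhx2, factors needed for liver growth, were found in 34.6% and 32.3% of members, but Hlx was as frequent in the other Gata4-positive cells, at 33.1%, and Lhx2 was at 14.9% there. Of the 22 genes of the proepicardial list, 15 had a higher mean in members than in the other Gata4-positive cells and 7 a lower one, and 11 were higher in every 1 of the 9 samples. CPM below are UMIs of the gene per 1000000 UMIs. Sema3d, a guidance cue, averaged 30.2 against 8.37 CPM, Scx, a factor of tendon and of some proepicardial cells, 24.1 against 3.64 CPM, Upk1b, a uroplakin, 14.4 against 0.786 CPM, and Hand2, a relative of Hand1, 100.3 against 65.8 CPM. Among the 7, Aldh1a2 was detected in 30.5% of members and 41.7% of those cells, Hand1 averaged 86.8 against 113.7 CPM, Gata5, a partner of Gata4, 45.4 against 51.9 CPM, and Bnc2, a relative of Bnc1, 20.3 against 20.8 CPM. Other genes of septum transversum and liver mesenchyme went both ways. Foxf1 averaged 55.35 against 117.4 CPM, Hgf 4.084 against 6.48 CPM and Igf1 4.524 against 12.72 CPM, lower in members. Mab21l2 averaged 80.35 against 49.25 CPM and Dlk1 732 against 543.5 CPM, higher in members. Members thus carried most but not all of the label's markers, and the septum transversum genes Hlx and Lhx2 in a minority of cells. No test is given for these levels, because the rule chose the cells.

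Beyond the rule's genes, several surface and matrix genes were among those with the highest ratio of members to the other Gata4-positive cells. Itga4, the alpha4 integrin that epicardial cells use to stay attached to the heart, averaged 79.4 CPM in members and 9.63 CPM in the other cells, over the 9 samples. Stk26, a protein kinase, averaged 104 against 13.9 CPM, Lrrn4, a leucine-rich repeat membrane protein, 47.4 against 5.01 CPM, Aplp1, a relative of the amyloid precursor protein, 63.6 against 11.5 CPM, and Dcn, the matrix proteoglycan decorin, 57.9 against 8.01 CPM. Each was higher in members in 9 of 9 samples. Set against the 987 cells over the sarcomere limit, members led in Ptn (835 against 80.2 CPM), a secreted growth factor, Col3a1 (236 against 19.8 CPM), Shisa3 (53.8 against 2.25 CPM), Bnc1 (53.3 against 2.95 CPM) and Twist1 (389 against 50.1 CPM), a factor of mesenchyme. In the other Gata4-positive cells these genes averaged 589, 224, 37.8, 11.5 and 398 CPM in that order. Col3a1 and Twist1 thus did not set members apart from those cells. Heart muscle genes were mixed in members. Outside the rule, Myh6 averaged 1.58 CPM and Tnni3 2.32 CPM, against 837 and 679 CPM over the limit. Tnni1, an early troponin, averaged 280 CPM in members, 147 CPM in the other Gata4-positive cells and 2314 CPM over the limit, and Actc1, cardiac actin, 96.3 CPM, 89.1 CPM and 10660 CPM. Of the rule's own sarcomere genes, Myl7 averaged 572 CPM in members against 147 CPM in the other Gata4-positive cells and Myl4 452 against 147 CPM, both higher in 9 of 9 samples.

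RNA of other cell types was measured in the same members. Of the 14 endoderm and liver bud markers, Foxa1, Hnf4a, Alb and Shh were at 0 in all E9.5 members of the fitted samples, and the 14 together made 11.0 to 16.2 CPM in controls and 9.41 to 15.0 CPM in mutants. Blood markers summed to 1246 to 6157 CPM in controls and 1557 to 5691 CPM in mutants, and Hbb-bh1, an embryonic globin, had a UMI in 98.2% of members and 96.9% of the remaining cells. The 10 endothelial markers summed to 64.9 to 125 CPM in controls and 89.9 to 221 CPM in mutants, and Egfl7 among them rose at E9.5 (edgeR adjusted p = 0.0489); their part in the results below was not tested. The cardiomyocyte markers, which include the rule's own genes, summed to 1131 to 2320 CPM in controls and 1025 to 1884 CPM in mutants. Intermediate mesoderm and gonad markers summed to 64.3 to 141 CPM in controls and 29.4 to 84.9 CPM in mutants. Those of allantois and extraembryonic tissue, Postn among them, summed to 85.6 to 271 and 156 to 489 CPM. Neural markers summed to 21.4 to 130 and 29.4 to 150 CPM, neural crest to 17.1 to 57.6 and 47.1 to 84.9 CPM. Paraxial mesoderm summed to 12.8 to 98.6 and 15.0 to 73.4 CPM. The share of members near the sarcomere limit was small: 20 members lay at 40 to 50 UMIs per 10000 and 4 cells just outside lay under 60, while the members' median was 7.22.

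Members were not uniform. All 3 of Wt1, Tbx18 and Upk3b were detected in 132 cells, Wt1 and Tbx18 in 124, Wt1 and Upk3b in 102, and Tbx18 and Upk3b in 29. The cells with all 3 were the deepest, with a median of 23460 UMIs against 17770 to 20880, so a missing marker can be a missed molecule. Lhx9, a LIM factor of coelomic mesothelium and gonad, stood at 113 CPM in the cells with all 3 markers and at no more than 11.2 CPM in the other combinations. Tcf21 was also highest there, at 122 CPM against 27.1 to 70.4 CPM. Podxl, a surface sialomucin of mesothelium, was at 156 CPM there, 123 CPM in Wt1 and Upk3b cells and 30.4 CPM in Wt1 and Tbx18 cells.

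The cells with Wt1 and Upk3b but no Tbx18 had another profile. Hand1, a basic helix-loop-helix factor of lateral mesoderm, was at 228 CPM in them and at 38.8 to 113 CPM in the other combinations. Foxf1, a factor of splanchnic mesoderm, was at 118 CPM in them and 34.4 CPM in the cells with all 3 markers, and Krt8 at 717 against 317 CPM. The matrix genes Lum, Postn and Col1a1 were at 112, 145 and 394 CPM in them, and at 9.38, 12.8 and 95.1 CPM in the cells with all 3 markers. These pools mix the genotypes: in E9.5 control cells alone Lum was at 11.1 CPM in both, Postn at 37.1 and 12.0 CPM, and Col1a1 at 184 and 108 CPM, while Hand1 was at 145 and 30.6 CPM. Shox2, a factor of the venous pole, was at 5.91 CPM in them and 49.9 to 56.9 CPM in the combinations with Tbx18. Wt1 and Tbx18 cells were highest for Alcam, an adhesion molecule of septum transversum mesenchyme, at 379 CPM against 153 to 247 CPM, and for Lhx2 at 68.8 CPM against 25.3 to 37.3 CPM. These are pooled UMIs over all members of both genotypes, given as a description with no test.

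**Figure D1:**
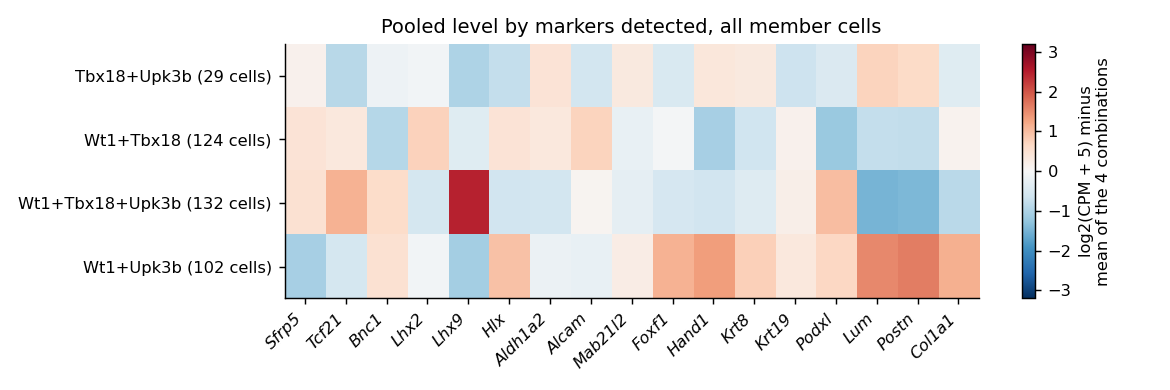
Pooled level of 17 genes (columns) in member cells grouped by which of the rule's 3 markers had a UMI (rows, with cell numbers); colour is log2(CPM + 5) minus the mean of the 4 combinations. Lhx9 and Tcf21 are highest in cells with all 3 markers, and Hand1, Foxf1, Lum, Postn and Col1a1 in cells with Wt1 and Upk3b.

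The share of sorted cells that met the rule was low at E8.0 and higher later. At E8.0 it was 0.308% ± 0.327 (SD, n = 3) in controls and 0.743% ± 0.553 (SD, n = 3) in mutants. At E8.5 the large control (barcode 3) had 3.71%, with an exact binomial 95% interval of 3.00% to 4.52%, and the mutant (barcode 1) 1.85%, interval 0.848% to 3.48%. The E7.5 control held 0 members among 28 cells, which allows a share of up to 10.7%. Intervals and limits cover counting error only. Within run 1, controls had 0% to 0.651% at E8.0 and 2.42% and 3.08% at E9.5, with no overlap. Within run 2, barcode 3 had 3.71% at E8.5 and barcode 4 1.81% at E9.5. These stage differences were not tested.

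At E9.5 members made up a larger share of mutant than of control samples. The controls of 20 or more cells had 2.42% and 3.08% in run 1, 1.81% in run 2, and 0.610% and 1.16% in run 3. The mutants had 4.98%, 4.96% and 5.89% in run 1, 1.75% in run 2, and 1.19% and 6.07% in run 3. All 3 mutants of run 1 lay above both controls of that run, whereas in run 2 the mutant, of 57 cells, lay just under the control. Means were 4.14% ± 2.12 (SD, n = 6) in mutants and 1.82% ± 0.982 (SD, n = 5) in controls. Within runs, the log2 odds, with 0.5 added to both counts, were 1.01 higher in mutants (exact permutation test, two-sided, p = 0.00833, the smallest that the 120 permutations allow). The addition turns the order in run 2: with nothing added the difference was 0.885 (exact permutation p = 0.025), and without run 2 1.28 (exact permutation p = 0.0167). Without control barcode 7 or 9, both of run 3, the threshold was missed (exact permutation p = 0.0833 and 0.0667). Without mutant barcode 10, also of run 3, the difference was 0.653.

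Over all stages the planned main setting did not pass, and the result depended on the setting. At equal depth neither the E9.5 nor the all-stage difference passed. Over 20 samples and 5 strata of stage and run, the log2 odds difference was 0.635 (exact permutation p = 0.119). With a sarcomere limit of 25 it was 0.962 (exact permutation p = 0.0454), with a limit of 100 0.788 (exact permutation p = 0.0362), and in a quasi-binomial model over 20 samples 0.762 (p = 0.016). With all 3 markers required it was 0.117 (exact permutation p = 0.793). Without the Gata4 criterion it was 0.412 (exact permutation p = 0.328), and with globin-rich cells out of the denominator 0.54 (exact permutation p = 0.194). Under the main rule the difference was 1.21 at E8.0 (exact permutation p = 0.40) and turned to -1.07 at E8.5 (exact permutation p = 0.333), where 3 samples cannot give a smaller p. With each cell thinned to 5000 UMIs, 87 cells met the rule. The E9.5 difference was then 0.688 (exact permutation p = 0.25) and the one over all stages 0.0456 (exact permutation p = 0.945). Thinned E9.5 shares in run 1 were 1.04%, 1.75% and 1.23% in mutants and 0.484% and 0.640% in controls. They were 0% and 0.753% in run 2 (mutant and control). In run 3 mutants had 0% and 3.36%, and controls 0.625% and 0.524%. Fewer cells also leave less power. Without thinning, leaving out the single E8.5 mutant sample gave 1.06 over all stages (exact permutation p = 0.0108). In dissociated and sorted samples, more member cells and fewer other cells cannot be told apart.

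**Figure D2:**
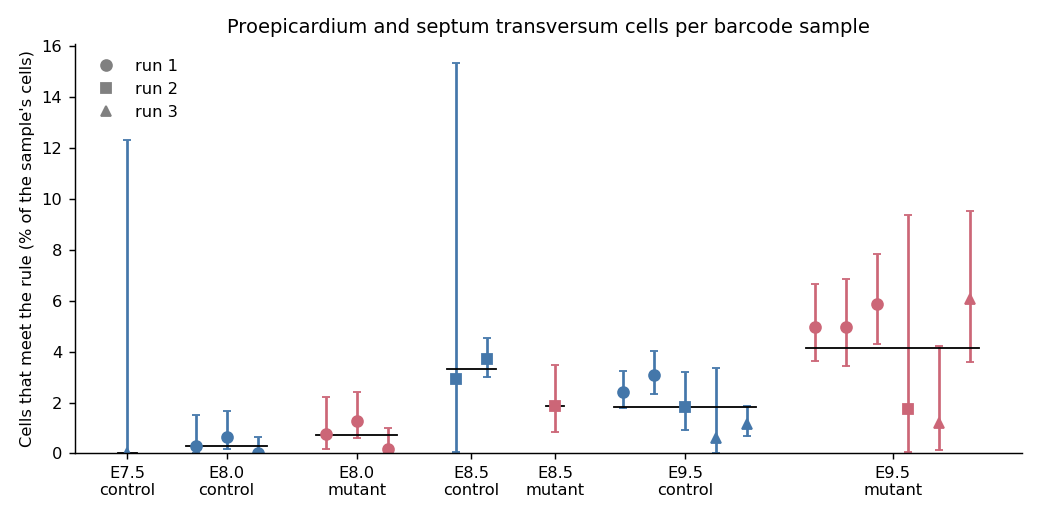
Share of each barcode sample's cells that met the rule (%), by stage and genotype; points are samples of 20 or more cells, bars exact binomial 95% intervals, lines the mean of a group and shapes the run. At E9.5 in run 1 the mutants sit between 4.96% and 5.89% and the controls at 2.42% and 3.08%.

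Wls, the floxed gene (chr3:159839672-159938664, GRCm38, protein coding), checked the labels. In E9.5 controls its level was 68.1, 82.1, 72.8 and 43.3 CPM (barcodes 22, 23, 4 and 9). In mutants it was 3.40, 2.35, 0 and 4.99 CPM (barcodes 19, 20, 21 and 10), all below every control. The fitted log2 fold change was -4.87 ± 0.41 (SE, edgeR adjusted p = 0.000105, 4 samples in each group), and Wls passed the test under each of the 18 other settings tried. The 18 settings, here and below, are not separate checks. At E9.5 that of at least 5 members held the same samples as the main fit, and that of at least 20 members the same as run 1 alone. A UMI of Wls was found in 62.7% of E9.5 control members and 2.14% of mutant members. At E8.0 and E8.5 it had 0 UMIs in every mutant sample: in the 9 members of barcode 27 this allows up to 12.9 CPM, and in the 9 of barcode 1 up to 12.9 CPM. The 1 member of the E9.5 control barcode 7 also had 0 UMIs, which at its depth allows up to 195 CPM. Controls had 70.3 CPM in barcode 3 at E8.5 and 66.6 ± 16.6 CPM (SD, n = 4) at E9.5.

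The genes of the rule did not pass the test by genotype at E9.5. Wt1 averaged 151 ± 40.6 CPM in controls and 164 ± 69.5 CPM in mutants, Tbx18 172 ± 21.5 and 162 ± 78.7 CPM, Upk3b 143 ± 42.1 and 128 ± 20.1 CPM, and Gata4 164 ± 10.8 and 168 ± 29.8 CPM (SD, n = 4 each). The groups overlapped for each. The rule chose cells by these genes in both genotypes, so their test cannot show whether genotype changes them, and no conclusion is drawn from it. Sfrp5 was at 133, 139, 201 and 32.5 CPM in controls and 90.8, 144, 39.4 and 120 CPM in mutants, with no separation.

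Across all genes, 92 of 10072 tested passed an adjusted p of 0.05 between mutant and control members at E9.5 (edgeR quasi-likelihood test, run as a term), 0.913% of those tested. Of these 76 rose, 0.755%, and 16 fell, 0.159%, and 1382 had an unadjusted p under 0.05. The median log2 fold change over all genes was 0.02. The count rested on the samples: it was 2 without barcode 22, 9 or 10, 3 without 23, 9 without 19, 123 without 21 and 554 without 20, and 2 in run 1 alone. Barcode 4 is alone in its run and bears little on the contrast (90 without it). In the fit run 3 held only barcodes 9 and 10, so without either the other is alone in its run. The fits without 9, without 10 and in run 1 alone thus rest on the same contrast within run 1. With barcode 3 of E8.5 added, 102 of 10266 genes passed.

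The 2 genes that passed in run 1 alone, and without barcode 22, 9 or 10, were Wls and Igfbp2, the latter named after its values were seen. Run 1 alone and the fits without 9 or 10 are not separate checks, as they share the contrast within run 1. Igfbp2, a secreted protein that binds insulin-like growth factors, was at 35.9, 43.2, 51.4 and 43.3 CPM in controls (barcodes 22, 23, 4 and 9) and 276, 165, 254 and 210 CPM in mutants (barcodes 19, 20, 21 and 10). Every mutant lay above every control by a wide margin (log2 fold change 2.54 ± 0.23 SE, edgeR adjusted p = 0.000116). The other genes named below lost the threshold when any of those samples was left out, and of the 92 genes called by genotype, 91 kept their direction in each of the 18 other settings in which they were tested, the exception being Rps13-ps1. These settings reuse the samples in which the genes were called, and that of at least 5 members repeats the main fit. A kept direction is thus no separate test of them.

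Many of the largest rises were in genes of the low-oxygen list. Ndrg1, a gene induced by low oxygen, was at 6.27, 5.93, 0 and 0 CPM in controls (barcodes 22, 23, 4 and 9) and at 104, 28.2, 234 and 99.8 CPM in mutants (barcodes 19, 20, 21 and 10). The mutants all lay above the controls, with barcode 20 lowest and 21 highest (log2 fold change 4.41 ± 0.73 SE, edgeR adjusted p = 0.0196). Slc2a1, the glucose transporter GLUT1, was at 138, 140, 137 and 162 CPM in controls and 517, 322, 652 and 409 CPM in mutants. Its log2 fold change was 1.77 ± 0.23 (SE, edgeR adjusted p = 0.00353), and it passed under 11 of 18 settings. Ddit4, an inhibitor of mTORC1 signalling, was at 28.7, 45.7, 38.5 and 16.2 CPM in controls and 339, 76.5, 491 and 235 CPM in mutants, in the same order of mutants.

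All 24 low-oxygen genes tested had positive fold changes, against 5245 of all 10072 genes, with a median of 2.23 on the log2 scale. Of the 24, 14 rose, where 0.755% of all genes did, and none fell. Besides those above they were Vegfa, the endothelial growth factor, Bnip3 and Ankrd37, P4ha1 and P4ha2, prolyl hydroxylases that mature collagen, Ero1l, an oxidase of protein folding, Egln1, an oxygen sensor of the HIF pathway, Ndufa4l2, Ier3, Stc2 and Slc2a3. In 15 of the 24 every mutant lay above every control, against 3.43% of all genes tested. Trib3, a pseudokinase of the stress response, was at 0 to 0.896 CPM in controls and 44.3, 2.35, 32.6 and 39.9 CPM in mutants (edgeR adjusted p = 0.0374), and Stc1, a secreted glycoprotein, at 0 to 1.79 and 7.06 to 32.9 CPM (edgeR adjusted p = 0.0264). Vldlr, a lipoprotein receptor, was at 0 to 5.93 CPM in controls and 18.8 to 109 CPM in mutants (edgeR adjusted p = 0.0206). Stc2 was at 0 to 5.41 CPM in controls and 74.9, 3.53, 68.0 and 84.9 CPM in mutants, and Ndufa4l2 at 0 to 5.41 CPM and 115, 8.24, 107 and 64.9 CPM, barcode 20 again far below the other mutants.

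Of 19 glycolysis genes tested, 4 rose, where 0.755% of all genes did. These were Hk2 and Pfkp, and Slc2a1 and Slc2a3, which are also in the low-oxygen list. Of the 19, 18 had positive fold changes, against 5245 of all 10072 genes. The median was 1.02 on the log2 scale, against 0.02 for all genes. With the share of Y-linked genes, which marks male embryos, as a covariate 1 of 19 passed and the median was 0.41. Hk2, hexokinase, which traps glucose in the cell, averaged 138 ± 17.4 CPM in controls and 486 ± 190 CPM in mutants (SD, n = 4 each). Pfkp, a phosphofructokinase, averaged 9.39 ± 2.99 CPM in controls and 90.5 ± 56.0 CPM in mutants, with the lowest mutant, barcode 20, at 17.7 CPM. Hmox1, heme oxygenase, rose from 30.8 ± 9.06 to 89.6 ± 35.6 CPM (log2 fold change 1.82 ± 0.36 SE, edgeR adjusted p = 0.0325).

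Other measures moved with these genes. Y-linked genes made 136 to 151 CPM of all cells in mutant barcodes 19 and 21 and 9.72 to 10.4 CPM in 20 and 10, and at most 8.58 CPM in the 4 controls. The low-oxygen genes of mutants 19 and 21 were high, but barcode 10, low in Y-linked genes, was as high as 19: the list's median log2 difference from controls was 1.98, 0.63, 2.77 and 1.94 in barcodes 19, 20, 21 and 10. With the Y-linked share as a covariate 18 genes passed, among the low-oxygen list 1 of 24, and the list's median was 0.94. Without barcode 22, 23, 9 or 10 none of the 24 passed, without 19 only 1 did, and without 20 23 did, while the list's median stayed between 1.91 and 2.59 over all samples left out in turn. Of the early response genes of tissue dissociation, Atf3 passed (controls 3.39 to 70.3 CPM, mutants 24.7 to 135 CPM), 1 of 10, where 0.913% of all genes did. Of 11 RNA quality genes tested 2 fell (edgeR), where 0.159% of all genes did, and 0 rose. Unadjusted p was under 0.05 in 6 of the 11 and in 1382 of all 10072 genes (edgeR). Those that fell were mt-Nd1 and mt-Cytb, from 3192 ± 879 to 2064 ± 482 CPM and from 4415 ± 1026 to 3105 ± 977 CPM. The part of sex, dissociation or RNA quality in the rise of the low-oxygen and glycolysis genes was not tested.

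**Figure D3:**
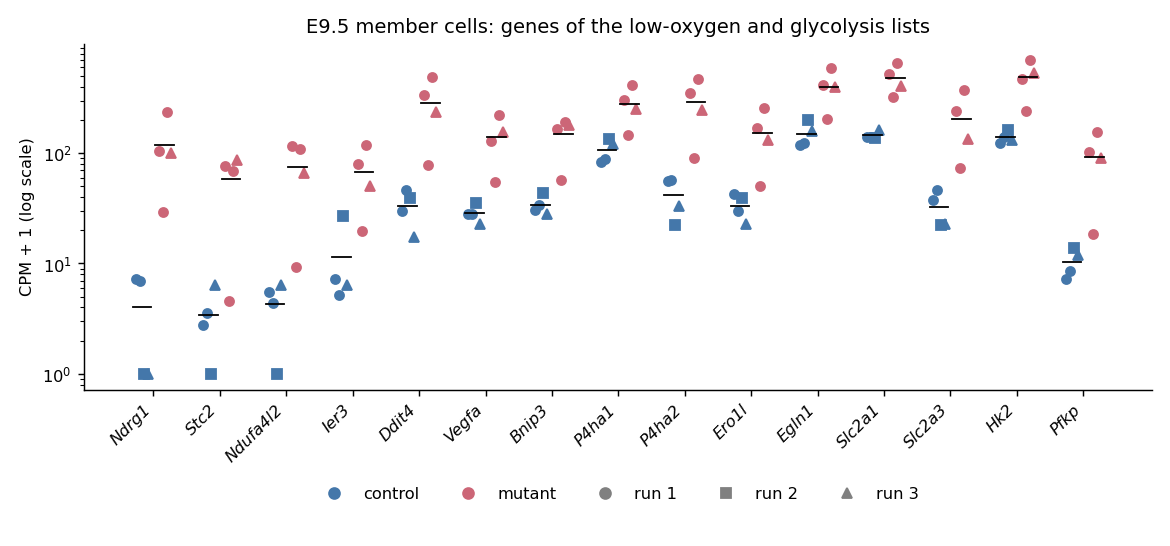
Level of 15 genes of the low-oxygen and glycolysis lists in E9.5 members, as CPM + 1 on a log scale; each point is a barcode sample, colour the genotype, shape the run and the line the group mean. For Slc2a1 controls lie at 137 to 162 CPM and mutants at 322 to 652 CPM, and barcode 20 is the lowest mutant in run 1 for each of the 15.

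The HIF factors that induce such genes are known to bind a short core motif, ACGTG or GCGTG. RefSeq promoter windows of 250 bases before the start (GRCm38.p6) were found for 20 of the 25 low-oxygen genes. ACGTG, on either strand, was in 11 of these 20 windows, and in 9 of the 11 whose gene rose, against 16.6% of the 27025 windows of all genes. ACGTG or GCGTG was in 10 of those 11 and in 38.6% of all windows. The list holds known targets of these factors, so the share is a description of the list, and a match does not show binding in these cells. The 4 windows below belong to the risen genes with an ACGTG match and the highest fold changes, and are shown up to the first exon base in GENCODE M21. They are given 5′ to 3′ on the gene's strand, with matches to either motif on either strand in capitals. They lie at chr17:35821463-35821683 (plus strand) for Ier3, chr10:59951835-59952020 (minus) for Ddit4, chr8:45999868-46000100 (minus) for Ankrd37 and chr11:54100674-54100923 (plus) for P4ha2.
Ier3: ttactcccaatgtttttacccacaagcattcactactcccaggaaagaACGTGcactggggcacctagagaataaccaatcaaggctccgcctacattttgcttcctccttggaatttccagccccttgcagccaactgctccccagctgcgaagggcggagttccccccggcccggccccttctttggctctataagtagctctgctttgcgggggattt
Ddit4: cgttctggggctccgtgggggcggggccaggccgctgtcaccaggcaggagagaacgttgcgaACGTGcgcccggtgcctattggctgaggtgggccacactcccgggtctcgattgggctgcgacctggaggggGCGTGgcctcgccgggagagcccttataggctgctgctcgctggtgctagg
Ankrd37: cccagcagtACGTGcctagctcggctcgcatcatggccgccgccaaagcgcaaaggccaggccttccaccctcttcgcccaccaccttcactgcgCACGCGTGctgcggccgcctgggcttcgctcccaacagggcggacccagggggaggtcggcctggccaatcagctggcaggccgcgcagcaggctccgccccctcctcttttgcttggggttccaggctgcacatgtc
P4ha2: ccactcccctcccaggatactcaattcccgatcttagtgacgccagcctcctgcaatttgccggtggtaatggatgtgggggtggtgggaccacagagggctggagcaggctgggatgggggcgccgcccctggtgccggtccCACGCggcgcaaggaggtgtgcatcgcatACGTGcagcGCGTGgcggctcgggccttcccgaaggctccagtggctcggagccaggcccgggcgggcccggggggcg

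Ier3, an immediate early gene, was at 6.27, 4.23, 25.7 and 5.41 CPM in controls and 78.3, 18.8, 117 and 49.9 CPM in mutants (barcodes in the order above), with control barcode 4 above mutant 20. Ankrd37 was at 18.8, 22.0, 77.1 and 37.9 CPM in controls and 202, 38.8, 275 and 180 CPM in mutants, and P4ha2 at 54.7, 55.9, 21.4 and 32.5 CPM and 351, 89.4, 470 and 245 CPM. In Ankrd37 the CACGC and GCGTG matches share bases. 
Part of the collagen and matrix list also rose. Of 21 tested, 6 rose (Col1a1, Col3a1, Col5a1, Lum, Dcn and Sparc), where 0.755% of all genes did, and the rest did not pass. Of the 21, 20 had positive fold changes, against 5245 of all 10072 genes. The median was 0.78 on the log2 scale, against 0.02 for all genes. In 8 of the 21 every mutant lay above every control, again against 3.43% of all genes. Col1a1, the main chain of fibrillar collagen I, was at 130, 126, 85.6 and 108 CPM in controls and 437, 577, 279 and 260 CPM in mutants. Its log2 fold change was 1.70 ± 0.22 (SE, edgeR adjusted p = 0.00353), and it passed under 11 of 18 settings. Dcn was at 24.2, 22.9, 21.4 and 59.5 CPM in controls and 74.9, 64.7, 62.5 and 165 CPM in mutants (log2 fold change 1.53 ± 0.20 SE, edgeR adjusted p = 0.00419), with both run 3 samples the highest of their group.

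The median over the matrix list varied little between the 4 mutants, although single genes did. The list's median log2 difference from controls was 0.68, 0.57, 0.72 and 0.66 in barcodes 19, 20, 21 and 10, and -0.10 to 0.11 in the controls. Lum, the proteoglycan lumican, was at 12.6, 6.77, 0 and 10.8 CPM in controls and 73.7, 182, 29.9 and 49.9 CPM in mutants, highest in barcode 20. Col3a1 averaged 162 ± 46.8 CPM in controls and 337 ± 70.1 CPM in mutants, Col5a1 21.7 ± 3.36 and 49.9 ± 6.36 CPM, and Sparc, a collagen-binding glycoprotein, 564 ± 43.7 and 876 ± 54.55 CPM (SD, n = 4 each). Fn1, fibronectin, was higher in each mutant than in each control but missed the threshold (log2 fold change 0.64 ± 0.15 SE, edgeR adjusted p = 0.0646). With the Y-linked share as a covariate 6 of the 21 passed. Without barcode 22, 23, 9 or 10 none did, without 19 2 did, and without 20 or 21 9 did. The list's median stayed between 0.65 and 0.90 over the samples left out, but was 0.38, with 13 of 17 positive and none called, in cells with all 3 markers.

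Genes of epithelial to mesenchymal change overlap the matrix list. Of 18 tested, 4 rose, where 0.755% of all genes did: Col1a1, Col3a1, Vim and Postn. None rose without barcode 22, 23, 9 or 10, 1 did without 19, and 6 did without 21. The list's median was 0.41, and -0.02 with 6 of 13 positive in cells with all 3 markers. Postn, the matrix protein periostin, was at 15.2, 14.4, 4.28 and 59.5 CPM in controls and 176, 165, 54.4 and 74.9 CPM in mutants, where control barcode 9 lay above mutant 21 (log2 fold change 2.70 ± 0.48 SE, edgeR adjusted p = 0.0219). Vim, the intermediate filament vimentin, averaged 946 ± 158 CPM in controls and 1437 ± 441 CPM in mutants. Acta2, smooth muscle actin, chosen for naming after its values were seen, was at 221, 295, 428 and 146 CPM in controls and 433, 814, 803 and 295 CPM in mutants (edgeR adjusted p = 0.0154).

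Of the 15 epithelial and mesothelial genes tested 2 rose (Krt8 and Krt19), where 0.755% of all genes did, and none fell. Krt19 was at 43.9, 31.3, 17.1 and 92.0 CPM in controls and 263, 75.3, 392 and 310 CPM in mutants, with barcode 20 under control barcode 9 (log2 fold change 2.54 ± 0.46 SE, edgeR adjusted p = 0.0226). It was detected in 31.8% of E9.5 control members and 72.1% of mutant members. Krt8 averaged 299.9 ± 36.5 CPM in controls and 519 ± 153 CPM in mutants, with no overlap (edgeR adjusted p = 0.0341). Krt18, the partner keratin of Krt8, averaged 313 ± 106 CPM in controls and 366 ± 48.5 CPM in mutants and did not pass (log2 fold change 0.13 ± 0.15 SE, edgeR adjusted p = 0.74).

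The genes that fell included 2 of the retinoic acid pathway. Aldh1a2, the enzyme that makes retinoic acid in mesothelium, was at 104, 55.9, 12.8 and 124 CPM in controls and 42.0, 18.8, 19.0 and 24.96 CPM in mutants. Within runs 1 and 3 the mutants were lower, while the run 2 control lay below all mutants (log2 fold change -1.63 ± 0.32 SE, edgeR adjusted p = 0.0312). Crabp2, a carrier that brings retinoic acid to its nuclear receptors, was at 120, 118, 163 and 103 CPM in controls and 57.9, 63.5, 46.2 and 54.9 CPM in mutants, with no overlap (log2 fold change -1.04 ± 0.17 SE, edgeR adjusted p = 0.0194). Of the 20 retinoic acid genes tested 2 fell, where 0.159% of all genes did, none rose, and the list's median was 0.02. The receptors Rara, Rarb and Rarg and the enzyme Rdh10 did not pass.

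**Figure D4:**
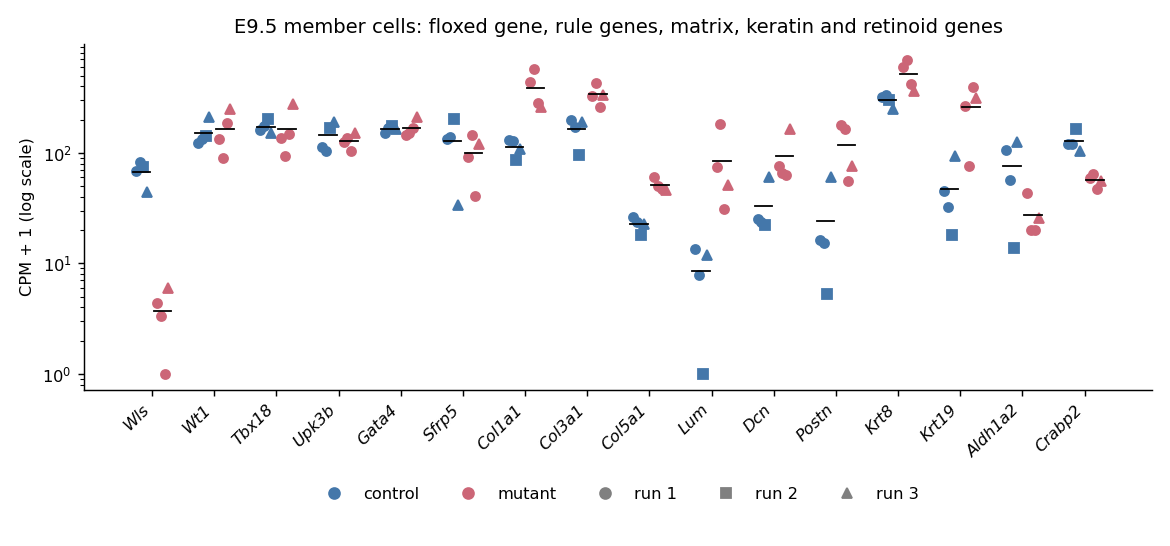
Level of Wls, the rule's genes, Sfrp5, matrix, keratin and retinoid genes in E9.5 members, as CPM + 1 on a log scale; each point is a barcode sample, colour the genotype, shape the run and the line the group mean. Wls lies at 43.3 to 82.1 CPM in controls and 0 to 4.99 CPM in mutants, the rule's genes overlap, and Col1a1 and Col5a1 separate the groups.

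The other genes with the largest falls belong to none of the lists. Baz1a, a chromatin remodelling subunit, averaged 81.2 ± 7.74 CPM in controls and 31.8 ± 9.72 CPM in mutants (log2 fold change -1.38 ± 0.21 SE, edgeR adjusted p = 0.0136). Ctu2, a tRNA thiolation enzyme, averaged 42.7 ± 8.77 and 16.6 ± 5.25 CPM, Fdps, a sterol pathway enzyme, 72.1 ± 7.81 and 31.8 ± 5.78 CPM, Rcc1, the exchange factor of Ran, 79.4 ± 20.2 and 37.6 ± 7.08 CPM, and Mat2a, which makes the methyl donor S-adenosylmethionine, 337 ± 35.9 and 167 ± 50.1 CPM (SD, n = 4 each). In all 5 every mutant lay below every control, as did 3.95% of all genes. Of 20 cell cycle genes 1 fell, where 0.159% of all genes did. It was Rrm2, a ribonucleotide reductase subunit (264 ± 50.7 to 135 ± 58.1 CPM, edgeR adjusted p = 0.0341). The other 19 did not pass, 18 of the 20 fold changes were negative and the median was -0.27. Over all genes 5245 of 10072 fold changes were positive and the median was 0.02.

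Targets and parts of the Wnt pathway other than Wls did not pass. Of 13 canonical targets tested, 0 passed (edgeR) and 0 had an unadjusted p under 0.05, with a median of -0.17 on the log2 scale. Axin2, a feedback target, averaged 14.8 ± 2.78 CPM in controls and 9.29 ± 4.06 CPM in mutants (log2 fold change -0.54 ± 0.39 SE), and Lef1, a nuclear effector, 29.4 ± 5.23 and 23.9 ± 6.79 CPM (-0.37 ± 0.29 SE). Among ligands, Wnt2 was at 195 ± 40.9 and 143 ± 65.7 CPM, and Wnt4, Wnt5a, Wnt5b and Wnt11 were at means of 5.76 to 30.7 CPM in either group. None of the 18 receptors, antagonists and R-spondins passed, with 1 unadjusted p under 0.05. Of 21 BMP genes 0 passed and 4 had an unadjusted p under 0.05, with a median of 0.42. Over all 10072 genes 1382 had an unadjusted p under 0.05 and the median was 0.02. Changes of 1 or less on the log2 scale were often not detectable at these depths.

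Most genes of the proepicardial and septum transversum lists did not pass. Of 20 proepicardial and epicardial genes, Krt19 rose and Aldh1a2 fell, and the median was 0.29. Over all genes 0.755% rose and 0.159% fell. Tcf21, Bnc1, Gata5, Gata6, Tbx5, Hand1 and Itga4 did not pass. Hand1 was at 46.6, 72.0, 25.7 and 59.5 CPM in controls and 140, 259, 58.5 and 74.9 CPM in mutants (log2 fold change 1.26 ± 0.40 SE, edgeR adjusted p = 0.161). Of 11 septum transversum genes none passed (edgeR) and 7 had an unadjusted p under 0.05, where 1382 of all 10072 genes did. Among the 11, Lhx2 had the largest fold change, -1.05 ± 0.28 (SE, edgeR adjusted p = 0.0994), from 49.6 ± 19.6 to 23.8 ± 17.3 CPM.

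The marker combinations of E9.5 members overlapped between the genotypes. All 3 markers were found in 35.4% ± 8.54 of control and 31.6% ± 6.70 of mutant members, Wt1 and Tbx18 in 28.8% ± 7.61 and 38.1% ± 11.9, and Wt1 and Upk3b in 26.5% ± 8.13 and 28.1% ± 9.78 (SD, n = 4 each). Tbx18 and Upk3b without Wt1 were found in 9.35% ± 7.79 and 2.21% ± 4.41: these were 5, 4, 0 and 3 cells in control barcodes 22, 23, 4 and 9, 3 cells in mutant barcode 20 and 0 in the other 3 mutants. Levels within a combination are pooled UMIs and have no test. Lum was at 11.1 CPM in control and 218 CPM in mutant cells with Wt1 and Upk3b, but at 11.1 and 4.65 CPM in cells with all 3 markers. Barcode 20 gave 14 of the mutants' Wt1 and Upk3b cells and 123 of their Lum UMIs. By sample Lum in these cells was at 168, 325, 102 and 156 CPM in barcodes 19, 20, 21 and 10, at 0 to 22.8 CPM in the 4 controls, and at 136 CPM in the mutant pool without barcode 20. Postn was at 37.1 and 295 CPM in the former and 12.0 and 19.8 CPM in the latter, and Col1a1 at 184 and 759 CPM and 108 and 147 CPM.

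Krt19 differed in each of the 3 large combinations: 11.6 and 254 CPM (control and mutant) with Wt1 and Tbx18, 40.7 and 282 CPM with all 3, and 78.0 and 207 CPM with Wt1 and Upk3b. Aldh1a2 was at 132 and 9.90 CPM in cells with Wt1 and Tbx18, and at 38.0 and 38.4 CPM in cells with all 3 markers. Slc2a1 was higher in mutants in all 3, at 73.1 and 410 CPM, 157 and 500 CPM, and 234 and 556 CPM in that order. Restricted to cells with all 3 markers the E9.5 fit, with 5 samples, called 1 of 5382 genes, Wls.

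The same comparison was made in the other Gata4-positive cells of the same samples. There 29 of 11797 genes passed at E9.5, 0.246%, 26 of them higher (0.22%) and 3 lower (0.0254%), and 15 were shared with members, all in the same direction. The shared genes were 16.3% of the members' calls and 51.7% of the other cells' calls. In cells over the sarcomere limit 480 of 10070 genes passed, 4.77%, of which 321 rose (3.19%) and 159 fell (1.58%), and 65 were shared with members, 70.7% of the members' calls and 13.5% of the calls there. Of the low-oxygen list 12 of 24 rose in the other Gata4-positive cells with a median of 1.95, and in barcodes 19, 20, 21 and 10 its median difference from controls was 1.82, 0.85, 2.28 and 1.66. For this list cells over the sarcomere limit had 1.72, 0.96, 1.77 and 1.53. The low-oxygen pattern, with barcode 20 lowest, was thus measured in each of the 3 classes.

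Whether the genotype effect differed between members and these cells was tested as an interaction, with each barcode sample as a block. This fit held 9 samples, the E9.5 samples and the E8.5 control barcode 3. Stage thus enters on the control side only, and without barcode 3 4 of 9967 genes passed. Of 10507 genes 2 passed, 0.019%, 1 in each direction (0.00952%), and 546 had an unadjusted p under 0.05. None of the 24 low-oxygen genes passed and their median interaction was 0.03. None of the 21 matrix genes passed and their median was 0.39. In the other Gata4-positive cells 2 of 23 matrix genes rose, and the list's median difference from controls was 0.70, 0.35, 0.04 and 0.33 in barcodes 19, 20, 21 and 10. Lum had an interaction of 2.15 (edgeR adjusted p = 0.117) and Dcn of 1.12 (edgeR adjusted p = 0.937). A rise in members alone was thus not shown for either list, and a p over the threshold does not show that the effects were equal.

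**Figure D5:**
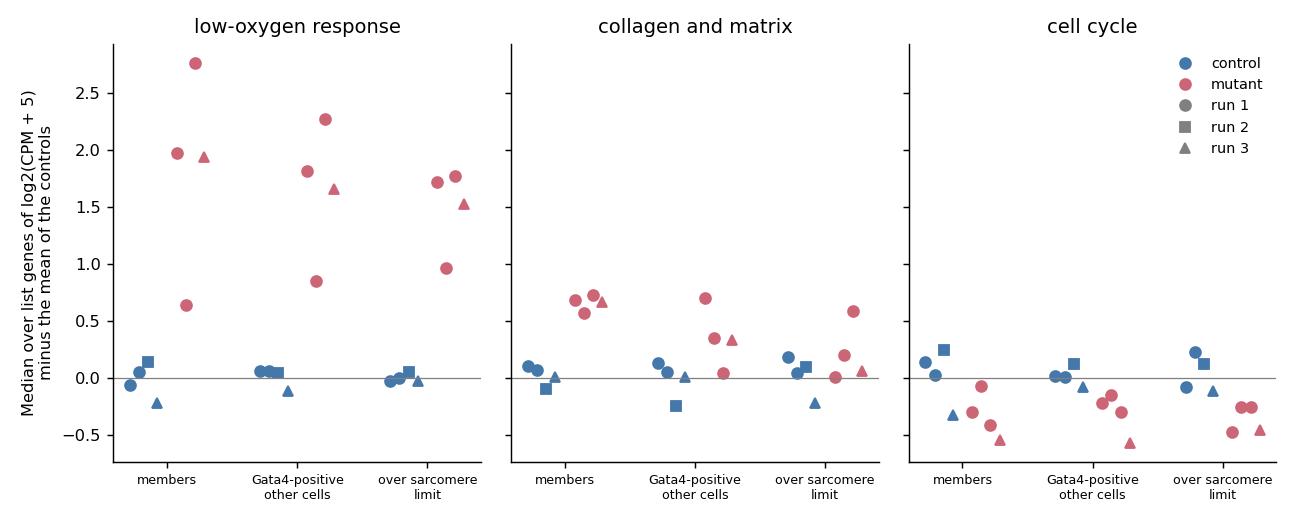
Median over the genes of 3 lists of log2(CPM + 5) minus the mean of the E9.5 controls, by cell class (horizontal axis); each point is a barcode sample, colour the genotype and shape the run. Low-oxygen genes are higher in mutants in all 3 classes. Matrix genes lie at 0.57 to 0.72 in mutant members and 0.04 to 0.70 in the other Gata4-positive cells of mutants. Cell cycle genes lie at -0.55 to -0.07 in mutant members and -0.33 to 0.24 in control members, so the groups overlap.

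The 2 genes of the interaction were Ttr and Fxyd6. Ttr, the thyroid hormone carrier made by endoderm and liver, had 0 to 12.8 CPM in all E9.5 member samples, but 1039 CPM in the other Gata4-positive cells of mutant barcode 20 and 0.890 to 18.9 CPM in those of the other 7 samples. Its interaction of -7.49 (edgeR adjusted p = 0.0201) became 0.01 without barcode 20. Fxyd6, a modulator of the sodium pump, averaged 75.6 ± 21.6 CPM in control and 97.1 ± 18.9 CPM in mutant members, and 143 ± 26.1 and 90.8 ± 27.5 CPM in the other cells (SD, n = 4 each). Its interaction was 0.95 (edgeR adjusted p = 0.0363), with 8 of 20 settings past the threshold.

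Earlier stages can only be described. Stages are compared here in controls, since genotype moved some of these genes, and the genotypes are then set side by side at E8.5. Pooled over the 5 E8.0 control members, Wt1 was at 36.0 CPM, Tbx18 at 28.8 CPM and Upk3b at 64.9 CPM, against 134, 171 and 119 CPM in E9.5 control members. The rule required at least 2 of these genes, and at E8.0 they had a UMI in only 3, 3 and 5 control cells. No change with stage is read from them. Hand1 was at 555 CPM in the E8.0 and 56.4 CPM in the E9.5 controls, and Krt8 at 1319 and 318 CPM. Aldh1a2 had 1 UMI at E8.0, 7.21 CPM with an exact Poisson interval of 0.182 to 40.2 CPM for counting error, and was at 35.8 CPM in E8.5 and 76.2 CPM in E9.5 controls. Among E8.5 members, the 9 of the mutant had Ddit4 at 68.6 CPM and Krt19 at 103 CPM, against 23.4 and 29.2 CPM in the 94 of the controls, while Ndrg1 was at 8.58 and 2.88 CPM. Krt19 was detected in 3 of the 9 mutant and 29 of the 94 control members, 33.3% and 30.9%. The 9 come from 1 barcode sample, so no genotype difference at E8.5 is read from these pools.

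A test of E9.5 against E8.5 members, added after the data were seen, used samples of 5 or more members (2 against 8) and genotype as a term. It called 1 of 9283 genes, 0.0108%: Gm8730, a processed pseudogene at 0.832 CPM in barcode 3, at 0 UMIs in barcode 1, which allows up to 12.9 CPM, and at 15.0 to 508 CPM at E9.5. The call rested on barcode 3: without it the log2 fold change was 10.4 (edgeR adjusted p = 0.51). Over the 18 E8.0 members, in run 1, Gm8730 was at 177 CPM. Without barcode 4, 33 genes passed, and with samples of 20 or more members 54 did. E8.5 lay in run 2 with only barcode 4 of E9.5, so stage and run can scarcely be separated. Rps13-ps1, another processed pseudogene, stood at 188 to 206 CPM in barcodes 3, 4, 19 and 21 and at 0 to 5.08 CPM in 22, 23, 9, 20 and 10, which does not follow genotype, although it passed by genotype at E9.5 (edgeR adjusted p = 0.0489). Reads of such pseudogenes can be shared with their parent genes.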

How the data were processed

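The authors deposited raw UMI counts per gene and cell for 51923 genes and 14777 cells. Reads were mapped with kallisto and bustools under a 10x v3 setting and MULTI-seq tags were demultiplexed, per the labels; the submitters' processing notes also name bustools 0.46.1, Cell Ranger and GRCm38. Run, barcode, stage and condition of each cell are other values, text labels in a table the authors deposited. The use of strand, the annotation and filters on cells are not given in the sources used here.

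Cells hold 895 to 102853 UMIs each. Counts of members were summed per barcode sample and samples of 10 or more members were tested with edgeR 4.0.16 (R 4.3.3, TMM, filterByExpr, quasi-likelihood, Benjamini-Hochberg, threshold 0.05), with run as a term. The interaction with other cells had the barcode sample as a block and included the E8.5 control barcode 3. Shares were compared over samples of 20 or more cells by an exact permutation test of log2 odds within stage and run. DESeq2 1.42.0 and limma 3.58.1 (log2 of mean CPM plus 5) were alternatives. Intervals are exact at 95%, and a count of 0 allows 3 counts. Scrublet in scanpy 1.11.5 (Python 3.11.15) called 99 doublets, 0.67% of cells, 7 of them members, which were kept except in 1 alternative. Of cell barcodes, 23 occurred in more than 1 run, 2 of them members.

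Tested on simulated data for E9.5 genotype, the fit recovered 49.5% of genes changed by 1 and 85.7% of those changed by 2 on the log2 scale, and called 0.128% of 9393 unchanged genes. Named were Wls, the rule's genes and Sfrp5, the 8 largest rises and falls of mean 20 CPM or more with 1 sign in every run, at most 4 called genes per list and direction, and the 10 genes leading members over each other class; other names are marked or are list members. The members and the 39 lists were chosen with earlier results of these data known. Positions come from GENCODE M21 and promoters from RefSeq (GRCm38.p6).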

Additional observations from a re-analysis of the deposited data

Results flagged for a closer look

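The genotype effect differed between members and the other Gata4-positive cells for 2 genes by the interaction test: Ttr (-7.491 on the log2 scale), which rests on mutant barcode 20 of the other cells, and Fxyd6 (0.9544).

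In 9 of 90 groups of samples checked (10% of them, where chance gives about 1 in 20), 1 sample lay far from the rest of its group. Among E9.5 controls, barcode 4 was far above the rest for Rps13-ps1 (201.2 CPM) and Ier3 (25.68 CPM), barcode 9 for Dcn (59.51 CPM) and Slc2a1 (162.3 CPM), and barcode 23 for Gm8730 (508 CPM), while barcode 9 was far below for Rrm2 (189.4 CPM). Among E9.5 mutants, barcode 10 was far above the rest for Dcn (164.7 CPM), barcode 20 for mt-Nd1 (2777 CPM) and barcode 19 for Ttr (2.269 CPM, with the others at 0).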

How the results depend on the processing

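The share difference over all stages (log2 odds 0.635), the planned main setting, did not pass the threshold. It passed with a sarcomere limit of 25 (0.9624) or 100 (0.7877), at E9.5 alone (1.01) and in a quasi-binomial model (0.7623). It did not pass with all 3 markers (0.117), without the Gata4 criterion (0.412), with globin-rich cells left out (0.54) or at 5000 UMIs per cell (0.0456). It turned at E8.5 alone (-1.068) and in run 2 alone (-0.3021), and ran from 0.4207 to 1.061 with 1 sample left out, the latter without barcode 1. The E9.5 difference (1.01) ran from 0.653 (without barcode 10) to 1.368 (without 8) with 1 sample left out, settings chosen after the data were seen, as were those for run 2 and the added 0.5.

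Genes called by genotype at E9.5 (92) and with the E8.5 control barcode 3 added (102) were 447 and 433 without a low-count filter, 2 and 10 with at least 20 members a sample, 1 and 1 with all 3 markers, 2 and 2 in run 1 alone, and 18 and 25 with the Y-linked share as a covariate. With 1 sample left out they ran from 2 (without barcode 22, 9 or 10) to 554 and 530 (without 20), with 3 without 23 and 9 without 19. The interaction (2) gave 1 with DESeq2, 73 without a filter, 0 with limma, 4 with at least 5 members, 0 with at least 20, 0 with all 3 markers, 1 in run 1, 26 against all cells outside the rule and 9 against cells over the sarcomere limit. It ran from 0 (without barcode 22, 20, 4 or 10) to 12 (without 19), with 5 without 21 and 4 without 3 or 9. E9.5 against E8.5 (1) gave 9 with DESeq2, 163 without a filter, 0 with limma, 54 with at least 20 members, 3 in controls and 3 in mutants alone, and 1 to 33 with 1 sample left out, the latter without barcode 4, and 2 without 3, 1 or 10. The cause of these changes was not tested; settings with fewer samples have less power by construction.

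Signs turned for genes that were not called: Wt1 with the Y-linked covariate (-0.3136; -0.07784 to 0.3388 with 1 sample left out), Tbx18 (-0.4035 to 0.006835 with 1 left out), Gata4 with at least 20 members or in run 1 (-0.01695; -0.02389 to 0.1561 with 1 left out), and Sfrp5 with the covariate (0.4022; -0.6441 to 0.002992 with 1 left out). Of called genes, Rps13-ps1 turned with the covariate (-0.3777) and the Ttr interaction ran from -11.45 to 0.01442 with 1 sample left out, the highest without barcode 20.

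No paired analysis was possible because the barcodes carry no replicate numbers shared between genotypes. Genotype at E8.0, E8.0 against E9.5, its interaction and the fit without E9.5 were not run, since no E8.0 sample held 10 members.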
